A study of Sus scrofa with 9 samples.

Results

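Integrins and cadherins are the surface receptors by which a fibroblast holds on to its matrix and to its neighbours. The genes described here were those with symbols beginning ITGA or ITGB followed by a digit, ITGAV, symbols of the form CDH followed by a number, every symbol beginning PCDH, and CTNNA1, CTNNB1 and CTNND1. Symbols were matched to the 30477 gene IDs of the files, of which 14864 had one, and the rule took 63 genes: 20 integrin subunits (12 alpha and 8 beta), 21 cadherins, 17 protocadherins, 3 catenins, and ITGB1BP1 and ITGB1BP2, which are named for binding an integrin tail and are not subunits. RNA was measured in porcine embryonic fibroblasts, connective tissue cells cultured from pig embryos. The cell lines had been thawed and grown before insulin was added. There were 3 untreated libraries at 0 h, 3 libraries at 48 h of insulin and 3 at 72 h, which the submitters call biological replicates. The insulin dose, the medium and the number of lines are unknown here. No untreated culture of 48 h or 72 h was analysed here, so insulin and time in culture cannot be told apart in any comparison with 0 h.

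An integrin is a pair of an alpha and a beta subunit, and the pair sets the ligand: collagens, laminins, or proteins such as fibronectin and vitronectin that carry the short RGD motif. Inside the cell the beta tail binds talin and kindlin, which link it to actin. Classical cadherins bind the same cadherin on the next cell and hold beta-catenin and alpha-catenin on their tails, while the product of CTNND1 binds closer to the membrane and keeps cadherins at the surface. Fibroblasts are known for the cadherins encoded by CDH2 (N-cadherin) and CDH11 (OB-cadherin) in place of the epithelial CDH1. Protocadherins are a wider family with weaker adhesion and roles in cell sorting.

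Levels are given in FPKM, fragment numbers divided by gene length and by library size, so they can be set side by side between genes. Log2 changes are on the scale log2(FPKM + 1), which understates the change of low genes, and carry standard errors. A gene rose or fell where limma's adjusted p over all 11063 tested genes was below 0.05. A gene was tested if it reached an FPKM of 1 in at least 3 libraries, and 32 of the 63 members did: 15 integrin subunits, 5 cadherins, 8 protocadherins, the 3 catenins and ITGB1BP1. FPKM sums per library ran from 487858 to 563656, with 10761 to 10833 genes at an FPKM of 1 or more. The read depth is unknown, so no counting interval is given.

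Of 12 fibroblast markers 10 had a symbol in the files, and all 10 were at an FPKM of 1 or more. COL1A1 was at 8407 ± 287 FPKM at 0 h (SD, n = 3) and VIM at 4666 ± 79.0. Means at 0 h, 48 h and 72 h were 9.34, 26.9 and 36.4 FPKM for PDGFRA and 26.5, 46.9 and 72.2 for DCN. They were 12.7, 33.8 and 48.3 for LUM and 6.29, 10.3 and 15.1 for FAP. The means of COL1A1, COL1A2 and COL3A1 were instead lower at both later times, with COL1A2 at 5680, 4276 and 4953. PTPRC, the defining leukocyte gene, CDH5, the cadherin of endothelium, and GRHL2, an epithelial transcription factor, were listed at 0 in all 9 libraries. Other markers of those cells were detected: at 0 h the leukocyte genes ITGAL and LCP1 were at 4.01 and 3.94 FPKM, and the endothelial genes ERG and CLDN5 at 8.21 and 5.75. The muscle gene DES was at 1440 ± 16 FPKM at 0 h.

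At 0 h the most abundant member was ITGB1, the beta subunit shared by the collagen, laminin and fibronectin receptors, at 862 ± 27.4 FPKM. ITGA5, its fibronectin-binding partner, followed at 422 ± 8.48 and ITGA8, whose known ligand is nephronectin, at 185 ± 2.93. CDH11 (145 ± 0.752), CTNNA1 (141 ± 1.31) and CTNNB1 (130 ± 2.85) came next, in an order that no library broke. CDH2 stood at 70.2 ± 3.70, PCDHGA4 at 57.0 ± 1.2, CTNND1 at 49.8 ± 1.30 and PCDH18 at 44.3 ± 1.34, and the other tested members were at 32.8 or below. In the plot of levels by gene the members span from under 1 FPKM to 890.89.

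**Figure D1:**
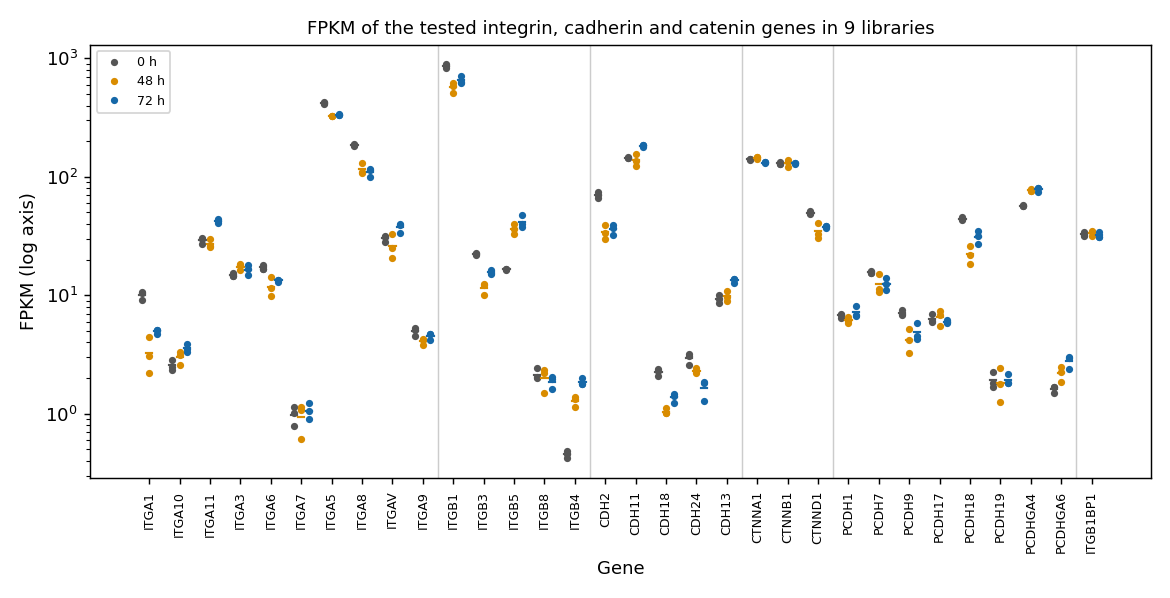
FPKM (log axis) of the 32 tested members in each of the 9 libraries, as points with a bar at the mean, for 0 h, 48 h and 72 h, with grey lines between integrin alpha, integrin beta, cadherin, catenin, protocadherin genes and ITGB1BP1. ITGB1 is the highest at every time, and CDH2, ITGB3 and ITGB1 sit lower at 48 h and 72 h while ITGB5 sits higher.

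After 48 h of insulin, ITGB1, ITGA5 and ITGA8, the 3 most abundant members, were lower than at 0 h, as were the vitronectin receptor subunit ITGB3, the collagen receptor subunit ITGA1, and CDH2. ITGB5, ITGB4 and PCDHGA4 were higher, and CDH11, the most abundant cadherin, did not pass. Of the 32 tested members 5 rose and 13 fell. Over all tested genes 49.9% were called, 27.6% as higher and 22.4% as lower, and the median change was 0.02 over all genes and -0.11 over the members.

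At 72 h against 0 h 8 members rose and 12 fell, where 45.5% of all genes were called, 23% as higher and 22.5% as lower, and the medians were -0.01 over all genes and -0.09 over the members. The 2 comparisons share their 0 h libraries. Between 48 h and 72 h, 8 members rose and 1 fell, while over all genes 25.4% were called, 9.17% as higher and 16.3% as lower. The median change from 48 h to 72 h was 0.15 over the members and -0.03 over all tested genes. The plot of changes from 0 h shows the members by family.

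**Figure D2:**
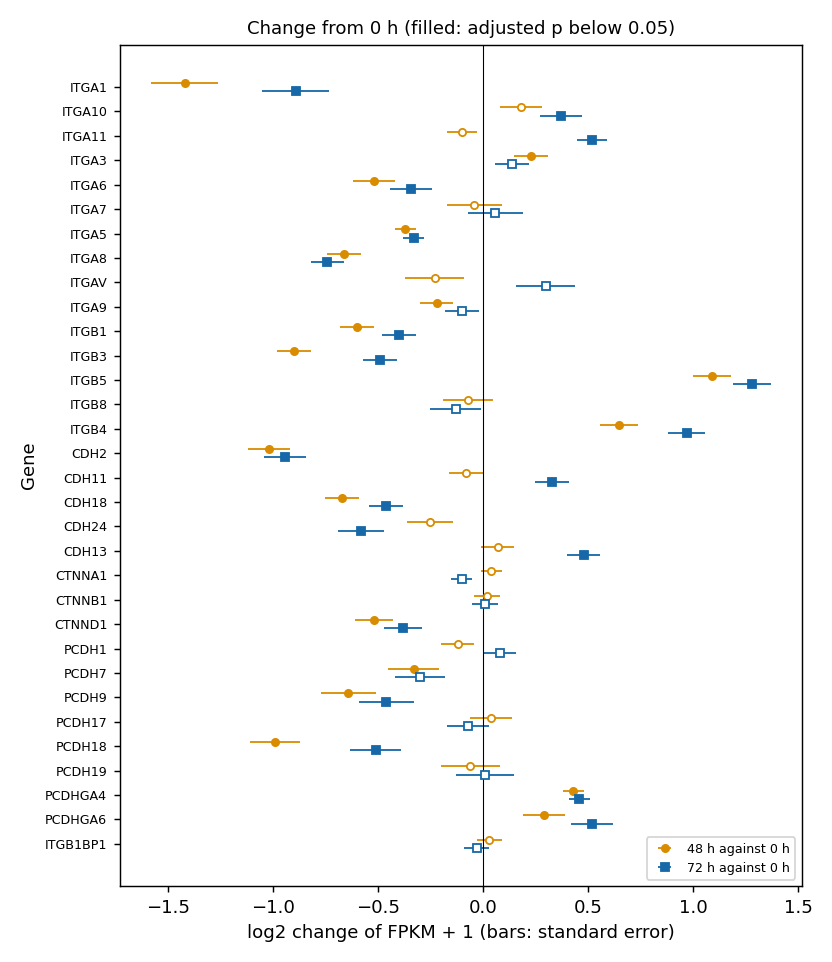
Change from 0 h on the log2(FPKM + 1) scale, with standard errors, for the 32 tested members at 48 h (circles) and 72 h (squares); filled symbols have an adjusted p below 0.05. ITGB5 is the highest at both times, with 1.09 and 1.28, and ITGA1 (-1.42) and CDH2 (-1.02) are the lowest at 48 h.

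Among the alpha subunits of RGD-binding integrins, ITGA5 and ITGA8 were lower at both times and ITGAV was not. ITGA5 (ENSSSCG00000000293; chromosome 5, 19587361 to 19610580) was at 431.03, 420.51 and 414.24 FPKM at 0 h, 328.10, 324.36 and 325.43 at 48 h, and 336.61, 334.88 and 335.68 at 72 h. Every treated library lay below every 0 h library, and the groups were tight. The log2 change was -0.37 ± 0.05 at 48 h (adjusted p = 1.19e-04) and -0.33 ± 0.05 at 72 h (adjusted p = 1.98e-04). ITGA8 (chromosome 10, 46132887 to 46303659) was at 181.76, 185.56 and 187.53 at 0 h, 110.67, 108.35 and 131.13 at 48 h, and 116.93, 99.53 and 114.43 at 72 h. It fell at both times, to changes of -0.66 ± 0.08 and -0.74 ± 0.08, and the 48 h and 72 h libraries overlapped.

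ITGAV (chromosome 15, 91604666 to 91711843), the alpha subunit that pairs with ITGB3, ITGB5 and ITGB8, was at 28.44, 31.38 and 31.07 at 0 h. Its 48 h libraries were spread from 20.56 over 24.97 to 33.18, on both sides of the 0 h values, and the 72 h libraries were at 39.64, 33.67 and 39.51. Neither comparison with 0 h passed (adjusted p = 0.200 at 48 h and 0.101 at 72 h), while the rise from 48 h to 72 h did, at 0.53 ± 0.14 (adjusted p = 0.0203). That rise missed the threshold without 48 h replicate 1 or 2 and without 72 h replicate 1 or 3 (changes of 0.37 to 0.50, adjusted p = 0.0549 to 0.0668). At 48 h ITGAV passed as lower without 48 h replicate 3 (-0.40, adjusted p = 0.00763), and at 72 h as higher without 48 h replicate 1 (adjusted p = 0.0364) or 3 (adjusted p = 0.0190), which enter only the estimate of the spread, and in the fit of 0 h and 72 h alone (adjusted p = 0.0113). With library weights it passed in both comparisons (-0.26, adjusted p = 0.00302, and 0.34, adjusted p = 0.0100).

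Of the beta subunits that pair with ITGAV, ITGB3 and ITGB5 moved in opposite directions. ITGB3 (chromosome 12, 16694466 to 16752228), known from platelets and from vitronectin and osteopontin binding, was at 22.33, 22.55 and 21.91 FPKM at 0 h, 9.98, 12.41 and 12.24 at 48 h, and 16.32, 15.38 and 15.04 at 72 h. No libraries of different groups overlapped. It fell by 0.90 on the log2 scale at 48 h (SE 0.08, adjusted p = 1.30e-05), was 0.41 ± 0.08 higher at 72 h than at 48 h (adjusted p = 0.00506), and was still below 0 h at 72 h (-0.49 ± 0.08). ITGB5 (chromosome 13, 135468111 to 135587483), which with ITGAV forms another vitronectin receptor, was at 16.67, 16.38 and 16.59 at 0 h, 36.02, 40.26 and 33.14 at 48 h, and 37.64, 48.08 and 39.75 at 72 h.

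All treated libraries were above all 0 h libraries for ITGB5. Its changes were 1.09 ± 0.09 at 48 h (adjusted p = 1.05e-05) and 1.28 ± 0.09 at 72 h (adjusted p = 1.56e-06). The ratio of ITGB5 to ITGB3, which does not depend on how libraries were scaled and was chosen after these values had been seen, was 0.743 ± 0.0156 at 0 h, 3.19 ± 0.454 at 48 h and 2.69 ± 0.412 at 72 h. ITGB3 was thus the higher of the pair in each 0 h library and ITGB5 in each later one. ITGB8, a receptor subunit known for activating latent TGF-beta, stayed low and did not pass any comparison, with means of 2.14, 2.02 and 1.87 FPKM, and the epithelial ITGB6 had at most 0.06.

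ITGB1 (chromosome 10, 56078393 to 56130608) was at 859.34, 836.33 and 890.89 FPKM at 0 h, 510.74, 582.15 and 622.42 at 48 h, and 635.99, 617.05 and 706.87 at 72 h. The later libraries were all below the 0 h ones and overlapped with each other. The change was -0.60 ± 0.08 at 48 h (adjusted p = 1.83e-04) and -0.40 ± 0.08 at 72 h (adjusted p = 0.00191), and 72 h against 48 h did not pass (0.19 ± 0.08, adjusted p = 0.0933), though it did without 48 h replicate 3 (0.26, adjusted p = 0.0304). ITGB1 made up 95.4% ± 0.12 of the FPKM sum of the 8 beta genes at 0 h, 91.6% ± 0.881 at 48 h and 91.3% ± 1.1 at 72 h. ITGB5 went from 1.8% to 5.9% of that sum at both later times. The sum itself was 904.2 ± 27.6 FPKM at 0 h, 623.9 ± 57.3 at 48 h and 715.1 ± 44.3 at 72 h.

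Of the 4 collagen-binding alpha subunits, ITGA1 fell, ITGA11 and ITGA10 rose by 72 h, and ITGA2 was not tested. ITGA1 (chromosome 16, 32130265 to 32309917), which favours basement membrane collagen, was at 9.13, 10.39 and 10.72 FPKM at 0 h, 2.20, 3.06 and 4.46 at 48 h, and 5.14, 4.75 and 5.07 at 72 h, with no overlap between any groups. Its changes of -1.42 ± 0.16 at 48 h (adjusted p = 5.26e-05) and -0.89 ± 0.16 at 72 h (adjusted p = 9.12e-04) make it the member that fell the most at 48 h. The partial return from 48 h to 72 h (0.53 ± 0.16, adjusted p = 0.0307) missed the threshold without 48 h replicate 1 (0.35) or 2 (0.52) and without 72 h replicate 1 (0.51) or 3 (0.52), at adjusted p of 0.0773 to 0.0829. ITGA2, its neighbour on chromosome 16 (32336240 to 32440311) and also a collagen receptor subunit, was at 0.09 to 0.49 FPKM in all libraries.

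ITGA11 (chromosome 1, 166186601 to 166311046), a receptor for fibrillar collagen typical of mesenchymal cells, was at 30.42, 29.83 and 27.29 FPKM at 0 h, 25.79, 26.29 and 29.60 at 48 h, and 43.71, 40.67 and 42.41 at 72 h. Only the 72 h libraries stood apart. The change at 48 h did not pass (-0.10 ± 0.07, adjusted p = 0.266, but -0.23 and adjusted p = 0.0384 at equal FPKM sums), and the rises at 72 h did, by 0.52 ± 0.07 from 0 h (adjusted p = 1.38e-04) and 0.62 ± 0.07 from 48 h (adjusted p = 1.86e-04). ITGA10, a collagen receptor subunit of cartilage, was low, at 2.55 ± 0.254 FPKM at 0 h, 3.03 ± 0.407 at 48 h and 3.58 ± 0.298 at 72 h, and it rose at 72 h against 0 h (0.37 ± 0.10, adjusted p = 0.0110). The ratio of ITGA11 to ITGA1, also chosen with the values known, went from 2.92 ± 0.395 at 0 h to 8.98 ± 2.57 at 48 h and 8.48 ± 0.101 at 72 h. At 48 h, where ITGA11 did not pass, it adds nothing to the fall of ITGA1.

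The laminin-binding subunits were mixed. ITGA6 (chromosome 15, 78504108 to 78591779) was at 16.69, 18.15 and 16.74 FPKM at 0 h, 9.80, 11.57 and 14.17 at 48 h, and 13.44, 12.98 and 13.58 at 72 h. It fell at 48 h (-0.52 ± 0.10, adjusted p = 0.00247) and at 72 h (-0.34 ± 0.10, adjusted p = 0.0208), the latter not without 0 h replicate 2 (-0.31, adjusted p = 0.0723) or 72 h replicate 2 (-0.33, adjusted p = 0.0582). From 48 h to 72 h it passed as higher without 48 h replicate 3 (0.30, adjusted p = 0.0196). ITGA3 (chromosome 12, 26234769 to 26269327) was at 14.42, 15.32 and 14.54 at 0 h, 18.25, 16.22 and 18.00 at 48 h, and 16.51, 14.69 and 17.99 at 72 h.

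The rise of ITGA3 at 48 h was small (0.23 ± 0.08, adjusted p = 0.0339). It was lost without any single 0 h library and without 48 h replicate 1 or 3 (adjusted p = 0.0525 to 0.0953), and with libraries set to equal FPKM sums (0.10, adjusted p = 0.366). ITGA7, the laminin receptor subunit of muscle, had means of 0.983, 0.943 and 1.06 FPKM and did not pass. ITGB4, which pairs with ITGA6 and anchors epithelia to laminin, was low but rose at each step, from 0.42, 0.48 and 0.46 FPKM at 0 h to 1.39, 1.33 and 1.14 at 48 h and 1.77, 2.01 and 1.79 at 72 h, with no overlap.

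For ITGB4 the changes from 0 h were 0.65 ± 0.09 and 0.97 ± 0.09, and 1.32 and 1.82 with a pseudocount of 0.1 in place of 1. ITGB4 lay below an FPKM of 1 in every 0 h library. It was thus tested only through the 48 h and 72 h libraries, where it was higher. The step from 48 h to 72 h (0.32 ± 0.09, adjusted p = 0.0217) missed the threshold without 48 h replicate 2 (adjusted p = 0.0536) or 72 h replicate 2 (adjusted p = 0.0572). Of the 9 matched epithelial markers, KRT8 and ESRP1 reached an FPKM of 1 in 3 libraries. KRT8, a keratin of simple epithelia, had means of 5.98, 11.8 and 8.95 FPKM at the 3 times, KRT18, its partner, 0.247, 0.947 and 0.783, and ESRP1, an epithelial splicing factor, 2.29, 1.2 and 1.23. The markers summed to 8.56 to 9.94 FPKM at 0 h, 14.78 to 15.14 at 48 h and 11.40 to 12.63 at 72 h, and EPCAM, the defining surface marker, had a mean of at most 0.0533, with GRHL2 at 0. Their part in the ITGB4 rise was not tested.

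ITGA9, which binds tenascin and VCAM1, was at 4.50, 5.12 and 5.29 FPKM at 0 h, 4.31, 3.84 and 4.18 at 48 h, and 4.73, 4.22 and 4.71 at 72 h. Its small fall at 48 h (-0.22 ± 0.08, adjusted p = 0.0410) missed the threshold without 0 h replicate 2 or 3, 48 h replicate 2 or 3, or 72 h replicate 1 (adjusted p = 0.0524 to 0.142) and with quantile normalization (adjusted p = 0.0728), and was -0.34 at equal sums. ITGA4, the other subunit of that kind, was at 0.26 to 0.82 FPKM, and the leukocyte subunits ITGB2 and ITGB7 were at most at 0.70 and 0.28. The RGD-binding genes held 88.8% ± 0.256 of the FPKM sum of the 12 alpha genes at 0 h, 87.3% ± 0.582 at 48 h and 84.8% ± 0.237 at 72 h. Collagen-binding genes held 5.9% ± 0.135, 6.3% ± 0.383 and 9.0% ± 0.138, and the laminin-binding genes 4.6% ± 0.153, 5.6% ± 0.221 and 5.4% ± 0.226.

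In the cadherin family, 2 genes held most of the RNA, and their balance moved toward CDH11. CDH2 (ENSSSCG00000003722; chromosome 6, 112396713 to 112629073) was at 69.84, 66.62 and 74.00 FPKM at 0 h, 29.61, 33.86 and 39.19 at 48 h, and 36.94, 32.32 and 39.16 at 72 h. All later libraries lay far below the 0 h ones and overlapped with each other. It fell by 1.02 on the log2 scale at 48 h (SE 0.10, adjusted p = 2.58e-05) and by 0.94 at 72 h (SE 0.10, adjusted p = 2.68e-05), and 72 h did not pass against 48 h (0.08 ± 0.10).

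CDH11 (chromosome 6, 25782746 to 25933753) was at 146.13, 144.99 and 144.71 FPKM at 0 h, 122.42, 135.76 and 154.65 at 48 h, and 186.22, 176.96 and 186.61 at 72 h. The 48 h libraries lay on both sides of the 0 h ones, and the 72 h libraries above all others. At 48 h the change was -0.08 ± 0.08 (adjusted p = 0.378). CDH11 passed as lower at 48 h without 48 h replicate 3 (-0.17, adjusted p = 0.0357) and with quantile normalization (-0.26, adjusted p = 0.0412).

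At 72 h CDH11 had risen by 0.33 ± 0.08 from 0 h (adjusted p = 0.00453, but 0.0744 with quantile normalization) and by 0.42 ± 0.08 from 48 h (adjusted p = 0.00332). The ratio of CDH11 to CDH2 was 2.07 ± 0.111 at 0 h, 4.03 ± 0.0958 at 48 h and 5.09 ± 0.358 at 72 h, with no overlap between the 3 times. CDH2 held 30.3% ± 1.13 of the FPKM sum of the 21 cadherin genes at 0 h, 18.3% ± 0.456 at 48 h and 15.2% ± 0.917 at 72 h, and CDH11 held 62.8% ± 1.06, 73.6% ± 0.197 and 77.1% ± 0.7. The sum itself was 231.5 ± 3.71, 186.9 ± 21.9 and 237.9 ± 9.12 FPKM. The ratio and the genes drawn in the plot of shares were chosen after their values had been seen. CDH11 did not pass at 48 h, so its ratio and share at that time add nothing to the fall of CDH2.

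**Figure D3:**
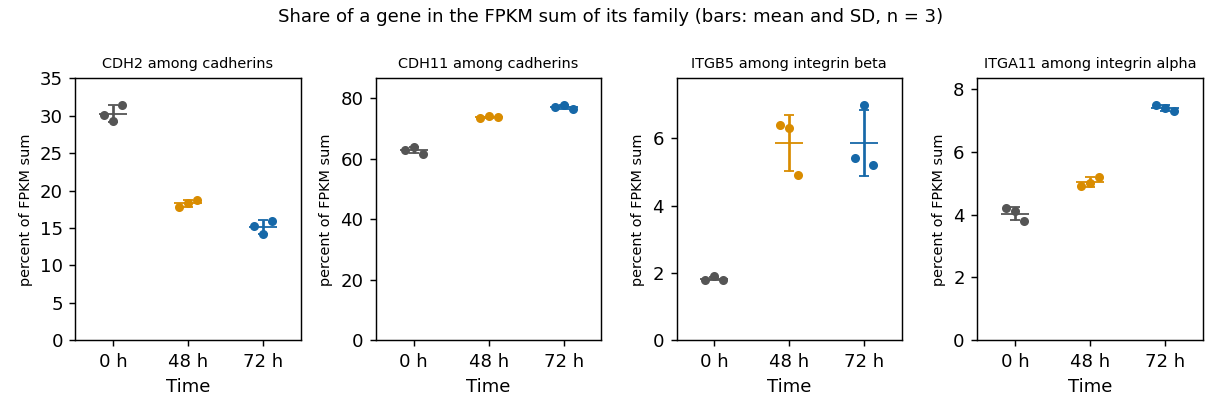
Percent of the FPKM sum of its family held by CDH2, CDH11, ITGB5 and ITGA11, as points for each library at 0 h, 48 h and 72 h with mean and SD (n = 3) and axes from 0. CDH2 goes from 30.3% to 15.2% while CDH11 goes from 62.8% to 77.1%, and ITGA11 stands apart at 72 h.

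CDH13, a cadherin without a cytoplasmic tail that is held by a lipid anchor, was at 10.01, 9.28 and 8.58 FPKM at 0 h, 9.61, 9.01 and 10.93 at 48 h, and 13.61, 12.81 and 13.70 at 72 h. It rose only at 72 h, by 0.48 ± 0.08 from 0 h (adjusted p = 7.06e-04) and by 0.41 ± 0.08 from 48 h (adjusted p = 0.00546). CDH24, a low type II cadherin, was at 2.56, 3.09 and 3.19 FPKM at 0 h, 2.31, 2.44 and 2.19 at 48 h, and 1.83, 1.85 and 1.27 at 72 h. It fell at 72 h against 0 h (-0.58 ± 0.11, adjusted p = 0.00133). The step from 48 h to 72 h (-0.33 ± 0.11, adjusted p = 0.0462) missed the threshold without any single library other than 72 h replicate 2 (-0.38 to -0.22, adjusted p = 0.0504 to 0.148), and the 48 h comparison (-0.25, adjusted p = 0.0769) passed without 0 h replicate 1 (adjusted p = 0.0498) or 72 h replicate 3 (adjusted p = 0.0401).

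CDH18 was at 2.31, 2.1 and 2.37 FPKM at 0 h, 1.01, 1.01 and 1.11 at 48 h, and 1.48, 1.41 and 1.23 at 72 h, and it fell at both times (-0.67 ± 0.08 and -0.46 ± 0.08). With a pseudocount of 0.1 the 48 h change was -1.04. It lies at one end of a run of type II cadherin genes on chromosome 16, from CDH18 (8090253 to 9117046) over CDH12 (9985759 to 10975489), CDH10 and CDH9 to CDH6 (17531862 to 17660081). CDH10 and CDH9 were at most at 0.07 and 0.06 FPKM. The next gene to CDH18, CDH12, was untested at means of 0.05, 0.267 and 0.453 FPKM, and in a fit of all genes with a value above 0 it passed as higher at both times (0.27, adjusted p = 0.0207, and 0.47, adjusted p = 0.00144). CDH6 passed there as lower at 48 h (-0.22, adjusted p = 0.0378).

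The other 16 cadherins were not tested. CDH5 and CDH16 were listed at 0 in all libraries, CDH1 reached at most 0.05 FPKM and CDH3, its neighbour on chromosome 6, at most 0.26. CDH15, the cadherin of muscle precursors, had the highest means of these, with 0.50 to 0.74 in its libraries. In the fit of all genes with a value above 0, CDH4 (0.21, adjusted p = 0.0212) and CDH8 (0.13, adjusted p = 0.0353) passed as higher at 72 h, at means of 0.230 and 0.203 FPKM.

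The catenins did not move together. CTNNB1, which carries the cadherin tail's link to alpha-catenin and also the Wnt signal, was at 128.94, 127.33 and 132.87 FPKM at 0 h, 121.92, 134.49 and 138.15 at 48 h, and 129.36, 131.34 and 131.76 at 72 h. The groups overlapped and the changes were 0.02 ± 0.06 and 0.01 ± 0.06. CTNNA1, which ties the complex to actin, was at 141.18, 139.16 and 141.62 at 0 h, 147.78, 140.74 and 145.97 at 48 h, and 129.71, 132.33 and 132.53 at 72 h.

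The CTNNA1 changes did not pass (0.04 ± 0.05, adjusted p = 0.487, and -0.10 ± 0.05, adjusted p = 0.122), and their calls turned on the processing. With quantile normalization CTNNA1 passed as lower at 48 h (-0.14, adjusted p = 0.0431) and at 72 h (-0.18, adjusted p = 0.0114). At 72 h it also passed as lower at equal sums (-0.15, adjusted p = 0.0228) and with library weights (-0.10, adjusted p = 0.0403). From 48 h to 72 h it missed the threshold (-0.14 ± 0.05, adjusted p = 0.0542). It passed there as lower with no filter (adjusted p = 0.0341) and with library weights (-0.11, adjusted p = 0.0159). CTNND1 (chromosome 2, 13143604 to 13209251) was at 48.68, 49.54 and 51.24 FPKM at 0 h, 30.67, 32.88 and 40.83 at 48 h, and 38.56, 36.89 and 38.48 at 72 h, below 0 h in all later libraries. It fell by 0.52 at 48 h (SE 0.09, adjusted p = 9.99e-04) and by 0.38 at 72 h (SE 0.09, adjusted p = 0.00528).

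The ratio of CTNNB1 to CTNND1 rose from 2.60 ± 0.0404 at 0 h to 3.82 ± 0.379 at 48 h and 3.45 ± 0.105 at 72 h, without overlap with 0 h. This pair too was chosen with the values known, so the shift adds nothing to the fall of CTNND1. From 48 h to 72 h CTNND1 passed as higher without 48 h replicate 3 (0.25, adjusted p = 0.0120) and not otherwise among the leave-outs. ITGB1BP1, whose product binds the ITGB1 tail and restrains its activation, was at 31.92, 32.51 and 33.96 FPKM at 0 h, 34.63, 34.22 and 31.45 at 48 h, and 34.11, 30.97 and 30.96 at 72 h, and did not pass in any comparison.

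Of the 6 tested non-clustered protocadherins 3 fell at 48 h and 2 at 72 h, and the 2 tested clustered ones rose at both times. The called share of the 8 tested protocadherins was 62.5% at 48 h and 50% at 72 h. Over all tested genes it was 49.9% and 45.5%. PCDH18 (chromosome 8, 89321487 to 89335406), a non-clustered member, was at 44.22, 43.02 and 45.70 FPKM at 0 h, 18.35, 21.90 and 26.05 at 48 h, and 31.40, 27.12 and 34.62 at 72 h. The 3 times did not overlap. It fell by 0.99 at 48 h (SE 0.12, adjusted p = 8.70e-05) and was 0.48 ± 0.12 above that at 72 h (adjusted p = 0.0144, but 0.0535 without 72 h replicate 3), still below 0 h (-0.51 ± 0.12).

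PCDH9 was at 6.89, 7.45 and 6.77 FPKM at 0 h, 3.28, 4.23 and 5.16 at 48 h, and 5.86, 4.26 and 4.55 at 72 h, lower at both times (-0.64 ± 0.13, adjusted p = 0.00301, and -0.46 ± 0.13, adjusted p = 0.0173). The 72 h call missed the threshold without 0 h replicate 2, 72 h replicate 2 or 72 h replicate 3 (adjusted p = 0.0532 to 0.0653). PCDH7 was at 15.35, 16.09 and 15.49 at 0 h, 10.71, 11.35 and 15.11 at 48 h, and 14.03, 11.11 and 12.44 at 72 h.

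The PCDH7 fall at 48 h (-0.33 ± 0.12, adjusted p = 0.0376) was lost without any 0 h library or 48 h replicate 1 or 2 (-0.34 to -0.24, adjusted p = 0.0715 to 0.134). At 72 h PCDH7 missed the threshold (-0.30 ± 0.12, adjusted p = 0.0539) and passed without 48 h replicate 1 or 3 or 72 h replicate 1 (adjusted p = 0.0112 to 0.0376). PCDH1 was at 6.99, 6.79 and 6.47 FPKM at 0 h, 5.85, 6.53 and 6.06 at 48 h, and 8.11, 6.78 and 6.70 at 72 h. PCDH17 was at 5.97, 6.11 and 6.95, then 5.45, 6.84 and 7.43, then 5.92, 5.80 and 6.17. These 2 and PCDH19 (1.26 to 2.41 FPKM) did not pass in any comparison. In the alternatives PCDH1 passed as lower at 48 h at equal sums (-0.24, adjusted p = 0.0452) and, with library weights, as higher from 48 h to 72 h (0.18, adjusted p = 0.0278), where PCDH17 passed as lower (-0.17, adjusted p = 0.0418).

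Of the 3 gamma cluster genes PCDHGA4 and PCDHGA6 were tested, and PCDHGB1 was not, at 0.31 to 1.06 FPKM. PCDHGA4 was at 56.29, 58.34 and 56.23 FPKM at 0 h, 79.15, 76.60 and 75.82 at 48 h, and 81.13, 79.87 and 74.92 at 72 h, above 0 h in all later libraries (0.43 ± 0.05, adjusted p = 1.08e-04, and 0.46 ± 0.05, adjusted p = 4.76e-05). With quantile normalization the 48 h rise was 0.27. PCDHGA6 was at 1.69, 1.67 and 1.49, then 1.86, 2.46 and 2.27, then 2.93, 2.37 and 2.99, and rose at 72 h by 0.52 ± 0.10 (adjusted p = 0.00170). Its 48 h rise (0.29, adjusted p = 0.0368) was lost without any 0 h library or 48 h replicate 2 or 3 (adjusted p = 0.0629 to 0.134), at equal sums (0.20, adjusted p = 0.158) and with a replicate block (adjusted p = 0.0565). Genes of this cluster share their last exons, so fragments from other gamma isoforms can be counted in these values and they cannot be assigned to single isoforms.

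The remaining 9 protocadherins were not tested, and PCDHB1 was listed at 0 in all libraries. PCDH10 had means of 0.717, 0.367 and 0.337 FPKM, and passed as lower in the fit of all genes with a value above 0 at 48 h (-0.33, adjusted p = 0.00108) and 72 h (-0.36, adjusted p = 4.75e-04). PCDH20 passed there as lower at 72 h (-0.22, adjusted p = 0.00690) and against 48 h (-0.18, adjusted p = 0.0378). ITGA4 was the only integrin subunit of the untested members to pass in that fit, as lower at 72 h (-0.34, adjusted p = 0.0253).

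The heat map of single libraries shows that the members varied within the treated times. Of the 32 tested members, 48 h replicate 1 was the lowest of its group for 20 and 48 h replicate 3 the highest for 19. Over all tested genes these shares were 38.6% and 37.4%. At 72 h, replicate 2 was the lowest for 21 members, against 34.1% of all genes. ITGA1, ITGAV, ITGB1, CDH2, CDH11 and PCDH18 all had their lowest 48 h value in replicate 1 and their highest in replicate 3.

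**Figure D4:**
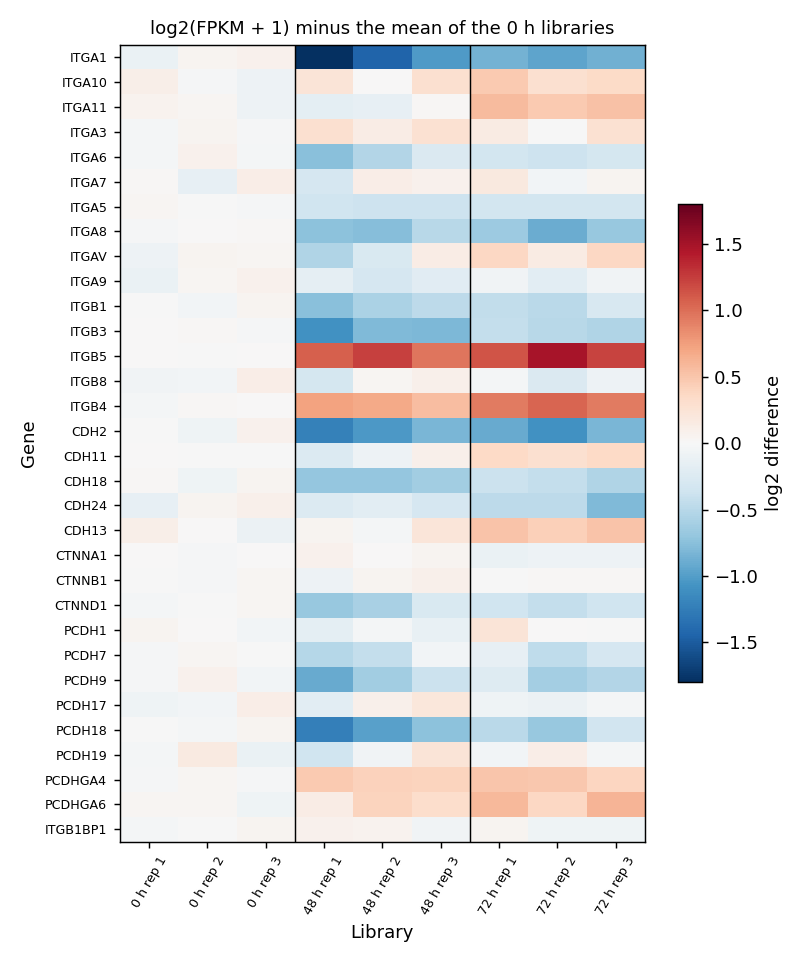
Difference of each library from the 0 h mean on the log2(FPKM + 1) scale, for the 32 tested members (rows) in the 9 libraries (columns); blue is lower and red higher. ITGB5 and ITGB4 are red in all 6 later libraries, ITGA1, CDH2, ITGA8 and ITGB1 are blue in all 6, and for ITGA1, CDH2 and PCDH18 the 48 h replicate 1 is the deepest blue.

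The summed levels of the muscle and the mural marker lists were lower at 48 h and 72 h than at 0 h, as were ITGB1, ITGA8 and CDH2, but single markers went both ways. Of 9 mural markers 5 reached an FPKM of 1 in 3 libraries, and the list summed to 889.09 to 912.23 FPKM at 0 h, 669.52 to 767.11 at 48 h and 627.01 to 755.66 at 72 h, most of it CNN1, with RGS5 at most at a mean of 0.0133. Those 5 all had lower means at both later times: NOTCH3 (52.7, 20.2 and 24.4 FPKM), MCAM (25, 12.9 and 9.6), CSPG4 (113, 80.7 and 92.3), MYH11 and CNN1. KCNJ8 (means of 0.26, 0.433 and 0.79 FPKM) and ABCC9 (0.127, 0.25 and 0.803) of that list were higher at 72 h. Neither of them reached an FPKM of 1 in 3 libraries. Of 9 skeletal muscle markers 4 reached an FPKM of 1 in 3 libraries. The list summed to 1430.26 to 1461.34 FPKM at 0 h, 865.57 to 944.82 at 48 h and 795.92 to 1000.96 at 72 h. Nearly all of it was DES, with MYOD1 at most at a mean of 0.133. MYOG had means of 0.453, 1.28 and 1.15 FPKM, TNNT1 of 3.61, 3.60 and 3.85, and MYH3 of 3.28, 1.63 and 0.930. The Schwann, neural and melanocyte list summed to 113.47 to 120.73 FPKM at 0 h, 167.08 to 192.98 at 48 h and 178.74 to 193.78 at 72 h. In it TUBB3 had means of 66.6, 150 and 138 FPKM, and NCAM1 of 46.6, 29.2 and 43.3. The fibroblast markers PDGFRA, DCN, LUM and FAP had higher means at both later times, as had ITGB5, while COL1A1, COL1A2 and COL3A1 had lower ones. The part of these lists in the falls and rises of members was not tested. A change in cells of a type and one in RNA per cell cannot be told apart in these bulk libraries.

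Genes around the receptors were taken from lists of ligands, adhesion adaptors, junction partners and factors of the mesenchymal state. Among 30 tested integrin ligands 10 rose and 16 fell at 48 h (median -0.24), and 11 rose and 12 fell at 72 h (median -0.00). The called share was 86.7% and 76.7%, against 49.9% and 45.5% of all tested genes. SPP1, which encodes osteopontin, a ligand of the ITGAV and ITGB3 pair, fell from 217 ± 1.57 FPKM at 0 h to 85.8 ± 3.01 at 48 h (-1.33 ± 0.07) and 106 ± 8.97 at 72 h (-1.03 ± 0.07). TNC, the matrix protein tenascin, fell from 1082 ± 14.9 to 550 ± 45 at 48 h (-0.98 ± 0.10). NPNT, the nephronectin bound by ITGA8 and ITGB1, rose from 5.23 ± 0.689 to 10.3 ± 1.37 at 48 h (0.86 ± 0.11), while ITGA8 fell.

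VCAM1, a ligand of ITGA4 and ITGA9, had the largest rise of the ligand list at both times (1.76 ± 0.17 and 1.94 ± 0.17). Its levels were low, at 0.37 ± 0.135 FPKM at 0 h, 3.65 ± 0.45 at 48 h and 4.37 ± 1.3 at 72 h. Being below an FPKM of 1 at 0 h, it was tested only through the later libraries, where it was higher. At 72 h POSTN, which encodes periostin, rose from 20.7 ± 1.32 to 67.6 ± 18.4 FPKM (1.63 ± 0.16), and TGFB3, whose latent form is a ligand of ITGAV integrins, fell from 38.8 ± 1.21 to 11.7 ± 1.26 (-1.65 ± 0.08). From 48 h to 72 h 13 ligands rose and 2 fell, where 9.17% of all tested genes were called higher and 16.3% lower. The split of all calls turned with the scaling, from 36% higher as deposited to 55.9% at equal FPKM sums.

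Of 36 tested adaptors 12 rose and 11 fell at 48 h, and 8 rose and 14 fell at 72 h, with medians of 0.02 and -0.08. The called share was 63.9% and 61.1%, beside 49.9% and 45.5% of all tested genes. ACTN1, an actin crosslinker of adhesion sites, fell from 816 ± 1.25 FPKM to 509 ± 11.7 at 48 h (-0.68 ± 0.05) and 471 ± 23.7 at 72 h (-0.79 ± 0.05), and LIMS2, a partner of the integrin-linked kinase, fell by 0.68 and 0.76. CD9, a tetraspanin that associates with integrins, rose from 13.2 ± 0.976 to 24.8 ± 1.92 at 48 h (0.87 ± 0.08) and 30.2 ± 2.68 at 72 h (1.14 ± 0.08), and NEDD9, a docking protein of the focal adhesion kinase, rose by 0.62 ± 0.08 and 0.78 ± 0.08.

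Of 24 tested junction partners 6 rose and 11 fell at 48 h, and 5 rose and 5 fell at 72 h, with medians of -0.10 and -0.13. That is 70.8% called at 48 h, beside 49.9% of all tested genes, and 41.7% at 72 h, near the 45.5% of all. DSC2, a desmosomal cadherin, fell from 82.7 ± 1.95 to 50 ± 7.56 FPKM at 48 h (-0.73 ± 0.10) and FAT1, a giant protocadherin, from 71.9 ± 2.87 to 44.2 ± 11.6 (-0.72 ± 0.14). PKP3, a desmosomal plaque protein, rose by 0.46 ± 0.14 at 48 h, and LIMA1, which links alpha-catenin to actin, by 0.41 ± 0.07. At 72 h CELSR1 fell by 0.60 and DSG2 by 0.48 on the log2 scale, while GJA1, the gap junction protein connexin, rose from 258 ± 3.80 to 363 ± 14.9 (0.49 ± 0.07) and FJX1 by 0.49 ± 0.15.

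Among the 7 tested mesenchymal factors, 3 rose and 2 fell at 48 h, and 2 rose at 72 h. The called share of this short list was 71.4% and then 28.6%, beside 49.9% and 45.5% of all tested genes. SNAI1, a repressor of CDH1, went from 26.4 ± 1.21 FPKM at 0 h to 47.7 ± 1.22 at 48 h (0.83 ± 0.06) and 31.2 ± 1.03 at 72 h (0.23 ± 0.06). ZEB1 fell from 15.9 ± 1.32 to 9.61 ± 2.14 at 48 h (-0.69 ± 0.13), TCF4 by 0.52, and TWIST2 rose by 0.68 ± 0.18 and 0.76 ± 0.18. From 48 h to 72 h ZEB1 rose to 13.5 ± 0.76 (0.47 ± 0.13) and TCF4 from 6.25 ± 1.98 to 9.59 ± 0.351 (0.58 ± 0.15). In that step SNAI1 (-0.60 ± 0.06) and SNAI2 (-0.31 ± 0.06) fell. CDH1 stayed at or below 0.05 FPKM throughout.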

How the data were processed

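The authors deposited 1 file of FPKM values per library, per the file headers, with 2 decimals and 1 value per gene. DESeq2, RSEM 1.2.28, featureCounts 2.0.2, HISAT2 2.1.0 and the build Sscrofa11.1 stand in the submitters' processing notes, without their roles, and the annotation and the strand setting are unknown here. The libraries were depleted of ribosomal RNA, per the labels' protocols. FPKM values are scaled within each library, so a rise of abundant transcripts lowers all others.

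Symbols came from a table of gene IDs, and coordinates, for 55 of the 63 members, from RefSeq's table of Sscrofa11.1, matched by symbol. All 9 libraries entered a fit of log2(FPKM + 1) on group in limma 3.58.1 (R 4.3.3), with a trend in the prior variance, two-sided tests and Benjamini-Hochberg adjustment over the 11063 genes that reached an FPKM of 1 in 3 or more libraries. Values per library are printed for 27 members by rule, those with a mean FPKM of at least 5 at some time or a called change of at least 0.5; ITGA9 was added. Partner genes are the 2 called with the largest change in each direction. The members and lists were chosen with earlier results of these data known. The scripts were tested on simulated data. Alternatives were the pseudocount, filter, scaling, library weights, a replicate block, fits of 2 groups, and leaving out each library. Where nothing says that replicates were separate cultures, p-values measure only the spread between these libraries, and this spread, not an unknown depth, sets the precision.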

Additional observations from a re-analysis of the deposited data

Results flagged for a closer look

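For 9 members the change from 0 h differed between 48 h and 72 h by the direct test of 72 h against 48 h (limma, adjusted p below the threshold). That is 28.1% of the 32 tested members, near the 25.4% of all tested genes. The difference, 72 h minus 48 h on the log2 scale, was 0.62 for ITGA11, 0.53 for ITGA1, 0.53 for ITGAV, 0.48 for PCDH18, 0.42 for CDH11, 0.41 for CDH13, 0.41 for ITGB3, 0.32 for ITGB4 and -0.33 for CDH24. For ITGA11, ITGAV and CDH11 the 48 h mean lay below 0 h and the 72 h mean above it. For ITGA1, ITGB3 and PCDH18 the fall at 48 h was smaller at 72 h. Groups of 3 libraries are too small for a test of single outlying libraries.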

How the results depend on the processing

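Of the calls, 14 of 18 at 48 h, 17 of 20 at 72 h and 4 of 9 for 72 h against 48 h held in every alternative that tested the gene. Over 1605 combinations of a member, a comparison and an alternative, 1498 kept their side of the threshold. A call was lost in 64 and gained in 42 (17 of these with library weights). In 1 the sign turned and the alternative passed: CTNNA1 at 48 h, at -0.14 with quantile normalization. Sign changes where neither fit passed stand among the 1498, such as CDH13 at 48 h, at 0.07 as reported and -0.05 at equal FPKM sums. Counts that moved by over 1.5 times were these, where the cause was not tested except that a mean FPKM of at least 5 leaves fewer members. Members higher at 48 h, 5 as reported, were 3 at a mean FPKM of at least 5, 3 at equal FPKM sums and 3 to 5 without single libraries. Members higher at 72 h, 8 as reported, were 5 at a mean FPKM of at least 5. From 48 h to 72 h, 8 rose as reported, 16 with library weights, whose estimate stopped before its convergence tolerance, and 5 to 11 without single libraries. The 1 that fell was 2 with no filter, 0 at a mean FPKM of at least 5, 0 at equal sums, 3 with library weights, 0 in the fit of 2 groups, and 0 to 1 without single libraries. With a replicate block it was 0. Correlations of the deviations of libraries ran from -0.07 to 0.19 for same-numbered libraries and from -0.18 to 0.17 for differently numbered ones. These ranges overlap, so they do not settle whether the numbers mark pairs. The block moved all calls from 5524 to 5632, 5029 to 5152 and 2814 to 3031, and among members it changed the calls of PCDHGA6 at 48 h and CDH24 from 48 h to 72 h and no other. Equal sums moved the median gene by -0.12 at 48 h, took the share of all calls that were higher from 55.2% to 34.7% at 48 h and from 36% to 55.9% for 72 h against 48 h, and gave 3 members higher and 16 lower at 48 h.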
